A study of Mus musculus with 9 samples.

Results

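BV2 cells under oxygen-glucose deprivation (OGD) were compared with control BV2 cells. BV2 is an immortalized mouse microglial line. The comparison used 6 of the 9 RNA libraries of the series, the 3 labelled OGD and the 3 labelled as normal control, and left out the 3 libraries that carried a drug in addition. Genes were kept if their mean over these 6 libraries was at least 1 FPKM, a fragment count corrected for the length of the gene and the depth of the library, which left 11818 of 54532 genes. According to the study's methods, the control cells received complete medium in a normal incubator, and the OGD cells received low-glucose medium with less serum in a hypoxic chamber. Oxygen, glucose and serum therefore changed together, and their parts in any difference cannot be told apart. The labels do not give the duration of OGD for these libraries. No source used here says whether the 3 libraries of a group came from separate cultures, so the p-values measure the spread between these libraries, which may be technical.

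Microglia are the resident macrophages of the brain, and they meet low oxygen and low glucose when the blood supply fails. In low oxygen, the prolyl hydroxylases that mark the alpha subunits of hypoxia-inducible factor (HIF) for destruction lose activity, and the stabilized factor switches on glucose uptake, glycolysis and vascular signals. Cells short of glucose or growth factors also leave the division cycle and make fewer ribosomes, and macrophages in such a state are known to secrete cytokines and proteases.

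The 2 groups differed across a large part of the transcriptome. A gene was called where limma's moderated test on log2(FPKM + 0.1) gave an unadjusted p-value under 0.01 and the log2 fold change passed 0.5 in either direction. By that rule 1493 genes were called higher under OGD, 12.6% of the genes tested, and 1453 were called lower, 12.3%. In every called gene the 3 OGD values lay entirely above or entirely below the 3 control values. With 3 libraries per group the limits for a call largely require this, so it is no separate result. The largest Benjamini-Hochberg adjusted p-value (limma) among the called genes was 0.0200. Large changes were mostly rises: 489 genes rose by more than 1 on the log2 scale and 189 fell by more than 1, and 66 rose by more than 2 and 12 fell by more than 2. The median log2 fold change of all genes tested was -0.01 and the median standard error 0.077. The filter bears on the rises and falls of low genes, since 363 genes passed it with a control mean under 1 FPKM and 175 with an OGD mean under 1 FPKM, and such a gene had to differ. The genes nearest to the limit had means of 1.0001 FPKM inside it and 0.99946 FPKM outside it. In the list counts that follow, "members tested" are those that passed this filter. The lists were written with earlier results of these data known, so their shares and ranks are not independent of the data.

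Between 12593250 and 15594706 reads fell on genes in each of the 6 libraries, so that each read counted for 0.0618 to 0.0786 FPKM at a gene length of 1 kb. No pair of libraries was identical, and within a group the chi-square between libraries was 2.67 to 5.16 times its degrees of freedom. The first principal component held 55.9% of the variance and separated the groups, with the control libraries between -34.1 and -30.7 and the OGD libraries between 30.5 and 36.7. Of 16 markers of microglia and macrophages, 11 passed the filter, 5 were called higher and 0 lower. Among them Cd68, Tyrobp and Spi1 were abundant in all 6 libraries, with lowest values of 275, 67.5 and 34.8 FPKM. Markers of microglia in the intact brain were low or missing: Tmem119 lay between 1.13 and 1.55 FPKM, P2ry12 and Fcrls did not exceed 0.138 and 0.101 FPKM, Sall1 did not exceed 0.0117 FPKM, and no read fell on Siglech. None of the listed markers of astrocytes, neurons, fibroblasts and epithelium, or T, B and NK cells reached a mean of 1 FPKM. Of 7 oligodendrocyte markers, Mbp alone passed the filter, at means of 1.036 and 1.096 FPKM, and was not called. Of 6 endothelial markers, Vwf was called higher, from a mean of 0.677 to 1.41 FPKM, Pecam1 lay under the filter at 0.362 and 0.866 FPKM, and Cldn5 had no read in any library. The call for Vwf was lost when any of the 3 OGD libraries was left out (0.91 to 1.005) and under quantile normalization (0.74). The 6 summed to between 1.3 and 1.36 FPKM in the control and between 2.46 and 3.12 FPKM in the OGD libraries. The part of such markers in the results was not tested. In bulk RNA, fewer cells of a kind or in a phase and less RNA per cell cannot be told apart. No source used here states whether reads were counted by strand, so the values of named genes that overlap a neighbour on the opposite strand may hold reads of that neighbour. These genes are Aldh1l2, Bcl3, Bcl6, Bid, Chd5, Csf1r, Cx3cr1, Cxcl10, Ddit3, Elovl6, Gpr183, Gys1, Hspd1, Il10ra, Junb, Kdm2b, Manf, Mbp, Pcx, Ppat, Prdx5, Shmt1, Slc5a6, Stab1, Tnfrsf18 and Tnfsf13b.

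**Figure D1:**
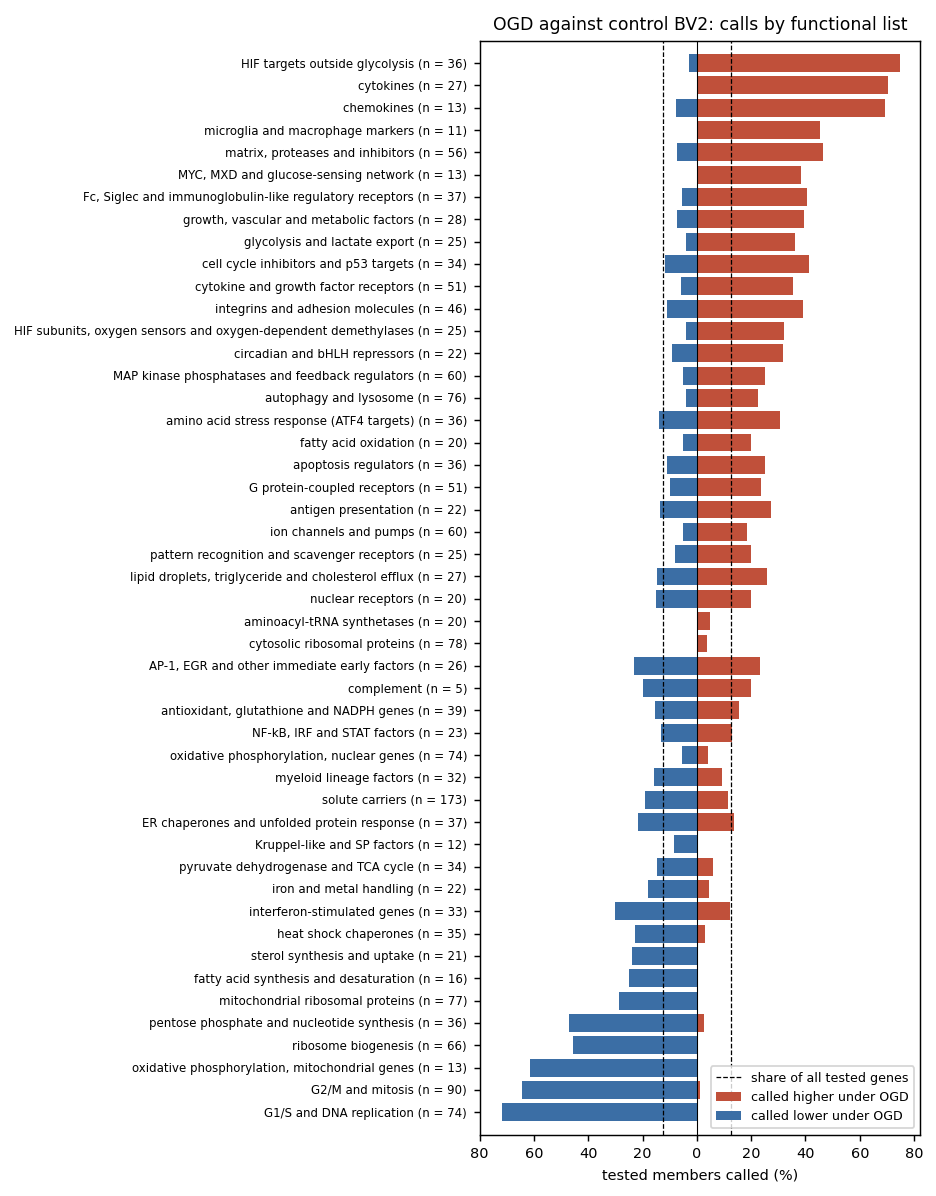
Horizontal bars give, for each list of genes with at least 5 members tested, the percentage of tested members called higher under OGD (to the right) and called lower (to the left), and the dashed lines mark the 12.6% and 12.3% of all tested genes. The lists of HIF targets, cytokines and chemokines extend farthest to the right, and the replication, mitosis and mitochondrial-genome lists farthest to the left.

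Both main glucose transporter genes and most HIF target genes rose. Of 25 members tested in a list of glycolysis and lactate export, 9 (36%) were called higher and 1 (4%) lower, with a median log2 fold change of 0.41 against -0.01 for all genes. The largest rise in the list was that of Slc2a3, which encodes the high-affinity glucose transporter GLUT3, with 24.4, 22.9 and 22.9 FPKM in the control libraries and 133, 142 and 135 FPKM in the OGD libraries. The groups were far apart and the log2 fold change was 2.54 ± 0.045 (SE; limma, adjusted p = 3.47e-07). Slc2a1, the gene of the widely expressed transporter GLUT1, gave 132, 129 and 124 FPKM in the control libraries and 319, 299 and 334 FPKM in the OGD libraries, a log2 fold change of 1.3 ± 0.051. Both transporters rose, and in the OGD libraries GLUT1 remained the more abundant per length.

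Inside the pathway the rises were smaller and uneven. The hexokinases Hk1 and Hk3, which trap glucose in the cell as glucose-6-phosphate, rose by 1.05 and 1.09 on the log2 scale, while Hk2, their often hypoxia-responsive relative, changed by 0.28 and was not called. Pgk1, which encodes an ATP-forming enzyme of lower glycolysis and was chosen after its values were seen, gave 938, 922 and 911 FPKM in the control libraries and 1612, 1590 and 1633 FPKM in the OGD libraries. Ldha, which makes lactate from pyruvate, overlapped between the groups, with 769, 784 and 778 FPKM in the control libraries and 829, 765 and 836 FPKM in the OGD libraries and a log2 fold change of 0.06 ± 0.047. Pfkfb3, whose product drives the committed step of glycolysis, lay above all control libraries with a log2 fold change of 0.47 ± 0.086, just under the limit for a call, and it passed the limit without control replicate 2 (0.52) or without OGD replicate 3 (0.55). The single member that fell was Slc16a1, the lactate and pyruvate carrier MCT1, with 54.5, 51.8 and 55 FPKM in the control libraries and 27.1, 26.6 and 26.4 FPKM in the OGD libraries.

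The 36 tested HIF targets outside glycolysis held the highest share of calls among the lists with more than 1 tested member. That list, like the others, was written with earlier results of these data known, so its rank is not independent of them. Of the 36 members, 27 (75%) were called higher and 1 (2.78%) lower, and the median log2 fold change was 1.11. Their FPKM summed to between 1304 and 1338 in the control libraries and to between 3120 and 3254 in the OGD libraries. Selenbp1, which encodes a selenium-binding methanethiol oxidase, stood at 28.9, 27.2 and 27.3 FPKM in the control libraries and 199, 203 and 211 FPKM in the OGD libraries, with a log2 fold change of 2.87 ± 0.043 (limma, adjusted p = 2.34e-07). Ero1l, the oxidase that supplies disulfide bonds in the endoplasmic reticulum, gave 92.4, 85.4 and 94.4 FPKM in the control libraries and 436, 544 and 418 FPKM in the OGD libraries. Its OGD libraries differed among themselves and all lay far above the controls, with a log2 fold change of 2.35 ± 0.101.

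Within the oxygen-sensing system itself, feedback enzymes rose and Hif1a was not called. Egln3, a prolyl hydroxylase that marks HIF for destruction, gave 79.4, 88.8 and 86.3 FPKM in the control libraries and 332, 333 and 339 FPKM in the OGD libraries, a log2 fold change of 1.98 ± 0.049. Its relative Egln1 rose by 1.12, and the oxygen-dependent histone demethylases Kdm3a and Kdm4c rose by 1.01 and 0.81. Hif1a itself overlapped between the groups, with 37.7, 36 and 38.5 FPKM in the control libraries and 34.9, 41.8 and 33.4 FPKM in the OGD libraries. Over the 25 tested members of this list of HIF subunits, oxygen sensors and oxygen-dependent demethylases, 8 (32%) were called higher and 1 (4%), the demethylase gene Kdm2b, lower. Other targets with single roles rose as well: Vegfa, the endothelial growth factor, by 1.27, Bnip3, a mitophagy receptor, by 1.25, and Hilpda, an inhibitor of triglyceride breakdown, by 1.82. Pdk1, a kinase that inactivates pyruvate dehydrogenase, rose by 0.604. Gys1, glycogen synthase, Ppp1r3b, a phosphatase subunit that activates it, and the stress gene Ndrg1, all 3 chosen after their values were seen, rose by 1.64, 2.07 and 1.92. The target that fell was Tfrc, the transferrin receptor, with 121, 116 and 121 FPKM in the control libraries and 68.7, 72.1 and 67.9 FPKM in the OGD libraries.

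The promoters of these genes were searched for the letters that HIF is known to bind. The windows were the 250 bases before the start of transcription in RefSeq (GRCm38.p6), found for 7610 of the 11818 genes and for 25 of the 36 HIF targets. The core ACGTG or GCGTG on either strand was in 19 of 25 windows (76%) against 59.8% of all 7610, and in 55.9% of the 945 windows of genes called higher. The core is short and common, and it overlaps the E-box CACGTG, which 9.13% of all windows hold. The windows of the 3 called HIF targets with the largest rise among those that hold the core are printed 5′ to 3′ on the strand of the gene, with the core in capitals.
Selenbp1, chr3:94932833-94933082, plus strand: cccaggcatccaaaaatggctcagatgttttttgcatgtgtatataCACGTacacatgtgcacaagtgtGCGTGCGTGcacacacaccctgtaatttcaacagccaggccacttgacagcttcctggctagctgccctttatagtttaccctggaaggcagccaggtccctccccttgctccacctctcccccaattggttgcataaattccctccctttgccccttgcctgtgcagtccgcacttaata
P4ha2, chr11:54100674-54100923, plus strand: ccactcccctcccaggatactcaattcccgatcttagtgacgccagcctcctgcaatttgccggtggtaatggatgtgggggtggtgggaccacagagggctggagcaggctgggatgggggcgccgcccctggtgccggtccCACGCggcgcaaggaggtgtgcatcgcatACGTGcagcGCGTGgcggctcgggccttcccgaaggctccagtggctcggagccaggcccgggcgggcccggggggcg
Egln3, chr12:54203875-54204124, minus strand: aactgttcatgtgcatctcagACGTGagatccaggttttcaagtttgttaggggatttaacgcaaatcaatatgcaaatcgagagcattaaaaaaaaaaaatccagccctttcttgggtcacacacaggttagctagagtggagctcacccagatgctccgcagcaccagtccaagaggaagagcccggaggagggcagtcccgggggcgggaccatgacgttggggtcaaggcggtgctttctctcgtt
The matches begin between positions -204 and -177 relative to the start of transcription in Selenbp1, between -107 and -69 in P4ha2, and at -229 in Egln3. P4ha2, a subunit of the enzyme that hydroxylates collagen prolines, was a low gene, with 0.264, 0.292 and 0.396 FPKM in the control libraries and 1.88, 1.97 and 2.13 FPKM in the OGD libraries. A match is a string of letters and was not tested as a binding site.

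Most respiratory genes of the mitochondrial genome fell, and few of those in the nucleus were called. All 13 protein-coding genes of the mitochondrial genome passed the filter, and 8 (61.5%) were called lower and 0 higher, with a median log2 fold change of -0.82. Their FPKM summed to between 12750 and 15820 FPKM in the control and between 7704 and 8624 FPKM in the OGD libraries. The complex I subunit gene mt-Nd1 gave 2379, 2529 and 3025 FPKM in the control libraries and 815, 819 and 799 FPKM in the OGD libraries, a log2 fold change of -1.7 ± 0.088. Among the control libraries it was highest in replicate 3, which also had the highest share of reads on mitochondrial genes. That share lay between 1.82% and 2.20% in the control and between 1.14% and 1.28% in the OGD libraries, and its part in the result was not tested. Of the 74 nuclear genes of oxidative phosphorylation, 3 (4.05%) were called higher and 4 (5.41%) lower, both below the shares of all genes. The carrier of electrons Cycs, cytochrome c, fell by 0.79 on the log2 scale, and Cox7a1, a cytochrome oxidase subunit isoform, rose by 1.05. In the tricarboxylic acid cycle and at its entry, 2 of 34 members (5.88%) rose and 5 (14.7%) fell. The share of falls was near the 12.3% of all genes tested, and the median log2 fold change was -0.09. Pcx, pyruvate carboxylase, rose by 0.698, and Pdp2, the phosphatase that activates pyruvate dehydrogenase, fell by 0.73.

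Among genes for building nucleotides, fatty acids and sterols, falls outnumbered rises. In the list of the pentose phosphate pathway and nucleotide synthesis, 17 of 36 members (47.2%) were called lower and 1 (2.78%) higher, with a median log2 fold change of -0.48. Shmt1, a serine hydroxymethyltransferase of the folate cycle, gave 41.4, 40.8 and 40.2 FPKM in the control libraries and 20.4, 16.9 and 20.8 FPKM in the OGD libraries. Dctpp1, which clears non-canonical nucleotides from the pool, gave 101, 99.9 and 101 FPKM in the control libraries and 56.2, 43.4 and 51.2 FPKM in the OGD libraries. In both genes every OGD library lay far below the lowest control library. Ppat and Pfas, enzymes of purine synthesis, fell, with log2 fold changes of -0.89 and -0.88. The member that rose was Adssl1, an adenylosuccinate synthase, by 0.96.

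In fatty acid synthesis and desaturation, 4 of 16 members (25%) fell and 0 rose. Elovl6, an elongase, gave 12.5, 11.6 and 13.2 FPKM in the control libraries and 4.83, 5.02 and 4.55 FPKM in the OGD libraries. The other falls were in Acsl3, Fasn and Acaca, an acyl-CoA ligase, fatty acid synthase and acetyl-CoA carboxylase, which fell, with log2 fold changes of -1.04, -0.93 and -0.79. In sterol synthesis and uptake, 5 of 21 members (23.8%) fell and 0 rose. Acat2, Idi1, Dhcr7 and Insig1, enzymes of the pathway and its feedback regulator, fell, with log2 fold changes of -1.06, -0.94, -0.84 and -0.66. Hmgcs1, an early enzyme, overlapped between the groups, with a log2 fold change of -0.03 ± 0.058. Genes that break fatty acids down were mostly not called: 4 of 20 (20%) rose and 1 (5%) fell.

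**Figure D2:**
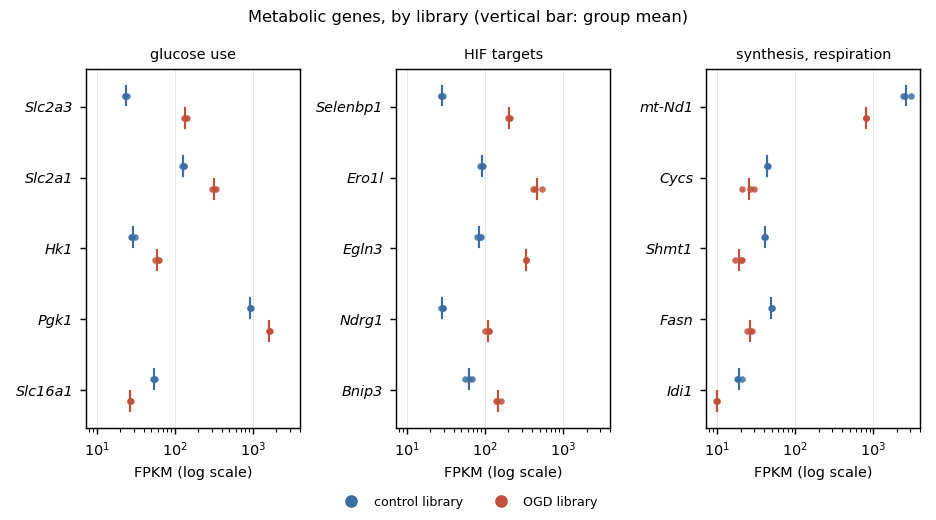
FPKM on a log axis of 15 metabolic genes in each of the 3 control libraries and the 3 OGD libraries, with a vertical bar at each group mean. In each gene the libraries of a group lie close together, and the groups do not overlap: the transporters and HIF targets lie higher under OGD, and Slc16a1, mt-Nd1 and the synthesis genes lie lower.

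Among called targets of the stress factor ATF4, rises outnumbered falls. In the list of ATF4 targets, which respond to amino acid shortage, 11 of 36 members (30.6%) rose and 5 (13.9%) fell, and the median log2 fold change was -0.03. The share of falls was near the 12.3% of all genes tested. Aldh1l2, a mitochondrial folate enzyme, Atf3, a stress-induced repressor, Ddit3, the pro-death factor CHOP, and Sesn2, an inhibitor of mTORC1, rose by 1.5, 1.42, 1.17 and 1.13. Slc7a11, the cystine importer that feeds glutathione synthesis, fell, with 10.8, 9.1 and 9.62 FPKM in the control libraries and 4.92, 5.52 and 4.28 FPKM in the OGD libraries. Shmt2, the mitochondrial serine hydroxymethyltransferase, and Phgdh, an enzyme of serine synthesis, fell, with log2 fold changes of -0.63 and -0.55. Atf4 itself and Asns, asparagine synthetase, overlapped between the groups, with log2 fold changes of -0.04 ± 0.044 and 0.02 ± 0.046. Of 39 antioxidant, glutathione and NADPH genes, 6 (15.4%) rose and 6 (15.4%) fell, shares near the 12.6% and 12.3% of all genes tested. The peroxidase gene Prdx5 rose by 1.22, and Gsr, Gclm and Gclc, which recycle and make glutathione, fell, with log2 fold changes of -0.89, -0.797 and -0.69.

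The cell cycle lists held the highest share of falls among the functional classes, with 115 of 197 genes (58.4%) called lower and 15 (7.61%) higher. Of the 74 tested genes of G1/S and DNA replication, 53 (71.6%) were called lower and 0 higher, with a median log2 fold change of -0.66 and a sum of between 2155 and 2167 FPKM in the control and between 1314 and 1443 FPKM in the OGD libraries. Rrm2, the inducible subunit of the enzyme that makes deoxynucleotides, gave 45.1, 44.3 and 44.9 FPKM in the control libraries and 17.4, 15.1 and 17.6 FPKM in the OGD libraries, a log2 fold change of -1.42 ± 0.064 (limma, adjusted p = 1.15e-05). The helicase subunit Mcm2 gave 34.9, 34.9 and 35.4 FPKM in the control libraries and 16.4, 15 and 17.7 FPKM in the OGD libraries. In both genes every OGD library lay below every control library, and the spread within each group was small against the gap. Exo1, Mcm10 and Gins1, a nuclease and replication fork proteins, fell, with log2 fold changes of -1.38, -1.17 and -1.14, and Ccne1, the cyclin that starts S phase and was chosen after its values were seen, fell by 1.11.

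In the list of G2/M and mitosis, 58 of 90 members (64.4%) were called lower and 1 (1.11%) higher, with a median log2 fold change of -0.63. Lmnb1, a nuclear lamina protein, fell by 1.17, Nek2 and Mad2l1, a centrosome kinase and a checkpoint protein, fell, with log2 fold changes of -1.04 and -1.04, and Ccnb1, the mitotic cyclin, stood at 61.7, 59.7 and 64.3 FPKM in the control libraries and 32.5, 34 and 34.6 FPKM in the OGD libraries. Mki67, the gene of the proliferation antigen Ki-67, gave 62.7, 69 and 69.2 FPKM in the control libraries and 43.9, 44.2 and 45.1 FPKM in the OGD libraries, and fell by 0.59. Cdk1, the partner kinase of cyclin B, lay below the controls in every OGD library but changed by -0.27 ± 0.059, within the limit for a call. The member that rose was G2e3, a ubiquitin ligase, by 0.51. That call was lost without control replicate 1 (0.50), control replicate 2 (0.46) or OGD replicate 2 (0.39), with a pseudocount of 1 (0.47), and under scaling to library totals (0.46) or with limma-voom (0.46).

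Several genes that hold the cycle back rose. In the list of cell cycle inhibitors and p53 targets, 14 of 34 members (41.2%) were called higher and 4 (11.8%) lower. Cdkn1a, which encodes the inhibitor p21, gave 30.7, 30.4 and 28.8 FPKM in the control libraries and 92.6, 82.7 and 89.98 FPKM in the OGD libraries, a log2 fold change of 1.56 ± 0.054. Cdkn1b, the gene of the inhibitor p27, gave 4.29, 4.53 and 4.91 FPKM in the control libraries and 9.77, 10.5 and 9.51 FPKM in the OGD libraries. Ccng2, a cyclin of resting cells, and Ddit4, an inhibitor of mTORC1, rose by 1.42 and 1.45. Not every p53 target rose, since Aen, a nuclease, and Tigar, a sugar phosphatase, fell, with log2 fold changes of -1.38 and -0.74. Ccnd1, the cyclin that responds to growth factors, changed by 0.26 ± 0.043 and was not called.

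The promoters of the replication and mitosis genes were read in the same windows. An E2F site, written as TTTCCCGC, TTTCGCGC, TTTGCCGC or TTTGGCGC on either strand, was in 13 of the 56 windows found for the replication list (23.2%) against 3.94% of all windows, and in 7.30% of the 1027 windows of genes called lower. The element TTTGAA, known from mitotic genes as the CHR, was in 24 of the 72 windows of the mitosis list (33.3%) against 10.1% of all windows, and CCAAT was in 50 of those 72 (69.4%) against 37.4%. The lists were made by function, so these shares describe the lists and not the response. The windows are printed of the 3 replication genes and the 2 mitosis genes with the largest fall among called members that hold the E2F site or TTTGAA, with those letters in capitals. These 5 genes were chosen by their windows after values were seen. Genes of a single chromosome were left out of this choice and of the choice of the HIF target windows.
Cdc25a, chr9:109875329-109875578, plus strand: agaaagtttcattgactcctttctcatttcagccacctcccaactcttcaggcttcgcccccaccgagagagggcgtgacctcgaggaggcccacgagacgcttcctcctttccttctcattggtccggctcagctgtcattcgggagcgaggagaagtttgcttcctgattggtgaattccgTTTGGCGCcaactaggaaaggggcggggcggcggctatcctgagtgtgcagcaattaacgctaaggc
Mcm5, chr8:75109259-75109508, plus strand: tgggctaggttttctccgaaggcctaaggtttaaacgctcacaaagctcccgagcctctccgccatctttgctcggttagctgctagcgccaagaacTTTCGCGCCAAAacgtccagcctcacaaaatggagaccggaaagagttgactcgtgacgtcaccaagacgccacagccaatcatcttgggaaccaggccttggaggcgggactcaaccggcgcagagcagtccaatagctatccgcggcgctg
Orc1, chr4:108579204-108579453, plus strand: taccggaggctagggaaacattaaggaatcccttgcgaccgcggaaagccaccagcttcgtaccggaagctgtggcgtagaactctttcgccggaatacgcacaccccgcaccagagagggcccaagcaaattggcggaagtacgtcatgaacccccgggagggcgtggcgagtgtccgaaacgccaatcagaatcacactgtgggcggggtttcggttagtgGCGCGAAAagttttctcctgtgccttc
Cks1b, chr3:89418292-89418541, minus strand: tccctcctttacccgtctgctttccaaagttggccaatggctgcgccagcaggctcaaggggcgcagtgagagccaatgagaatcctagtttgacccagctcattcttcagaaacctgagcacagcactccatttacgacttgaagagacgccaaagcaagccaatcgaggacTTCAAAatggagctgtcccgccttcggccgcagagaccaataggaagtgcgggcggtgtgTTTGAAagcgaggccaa
Tubb4b, chr2:25224703-25224952, minus strand: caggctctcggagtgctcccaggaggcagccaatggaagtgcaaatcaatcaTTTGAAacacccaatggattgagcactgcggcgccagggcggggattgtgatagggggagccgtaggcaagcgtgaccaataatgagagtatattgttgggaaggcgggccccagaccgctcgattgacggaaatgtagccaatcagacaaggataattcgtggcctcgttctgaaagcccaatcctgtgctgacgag
Cdc25a, the phosphatase that activates the kinases of S phase, fell by 1.04, Mcm5, a helicase subunit, fell by 1.04, and Orc1, which marks replication origins, fell by 0.99. Cks1b, an adaptor of the cyclin-dependent kinases, fell by 0.97 and Tubb4b, a tubulin, fell by 0.82. In Mcm5 the site reads as an E2F site on both strands, in overlapping letters.

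Genes that make ribosomes and genes of ribosomes parted. In ribosome biogenesis, 30 of 66 members (45.5%) were called lower and 0 higher, with a median log2 fold change of -0.45. Utp20, a factor of small-subunit assembly, gave 22.6, 23.8 and 23.9 FPKM in the control libraries and 9.49, 9.59 and 10.2 FPKM in the OGD libraries. Nolc1, a nucleolar phosphoprotein, gave 127, 124 and 132 FPKM in the control libraries and 69, 60.1 and 65.4 FPKM in the OGD libraries. In both genes all OGD libraries lay below the controls, and Grwd1, an assembly chaperone, fell by 0.99. The proteins of the mitochondrial ribosome were lower too, with 22 of 77 members (28.6%) called lower and 0 higher. Mrpl34, a protein of its large subunit, fell by 1.03. By contrast, 77 of the 78 tested genes for cytosolic ribosomal proteins had a log2 fold change above 0, the median was 0.36, and their FPKM summed to between 23657 and 24972 FPKM in the control and between 29675 and 33676 FPKM in the OGD libraries. Only 3 of them (3.85%), Rpl12, Rpl3 and Fau, passed the limit for a call, with 0.55, 0.54 and 0.52. All 3 calls were lost under quantile normalization (0.23, 0.40 and 0.33), under scaling to library totals (0.50, 0.49 and 0.47) and with limma-voom (0.50, 0.49 and 0.47), and that of Fau also without control replicate 3 (0.50), OGD replicate 1 (0.47) or OGD replicate 3 (0.48). The median of the list was 0.15 under quantile normalization. Aminoacyl-tRNA synthetases, which charge transfer RNA, had 1 of 20 members called higher, Sars, and 0 lower.

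**Figure D3:**
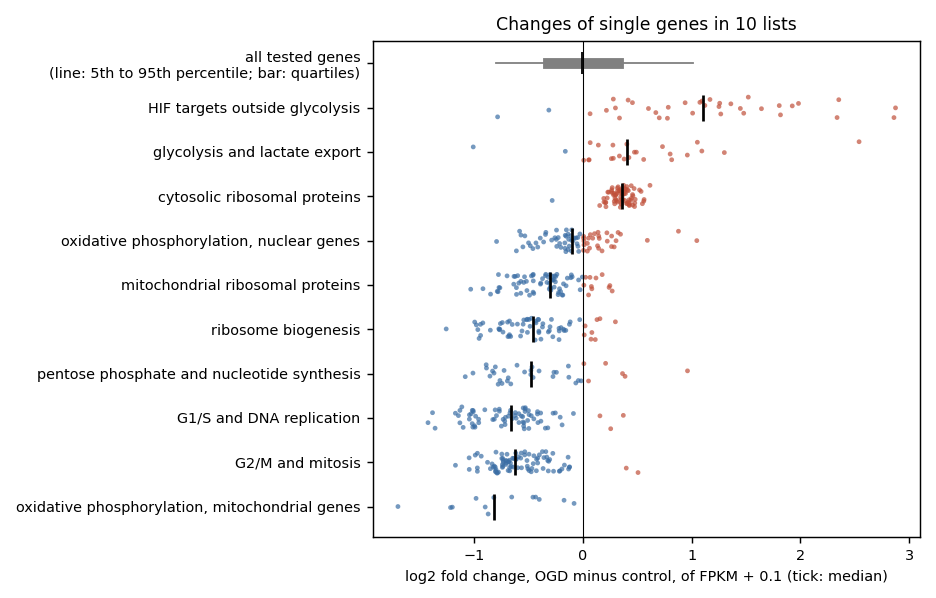
Each point is the log2 fold change of FPKM + 0.1 (OGD minus control) of a tested gene in 1 of 10 lists, red above 0 and blue below 0, and ticks mark the medians. The first row gives the central range and the quartiles of all 11818 genes: HIF targets lie to the right of it with a median of 1.11, cytosolic ribosomal proteins form a narrow band around 0.36, and the replication and mitosis genes lie to the left with medians of -0.66 and -0.63.

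Among protein folding genes falls outnumbered rises, and among lysosomal genes rises outnumbered falls. Of 35 heat shock chaperones, 8 (22.9%) fell and 1 (2.86%) rose. Fkbp4, Hsph1 and Ahsa1, a co-chaperone, a nucleotide exchange factor and an activator of HSP90, fell, with log2 fold changes of -0.96, -0.92 and -0.89, and Hspd1, the mitochondrial chaperonin, fell by 0.67. In the endoplasmic reticulum, 8 of 37 members (21.6%) fell and 5 (13.5%) rose. Creld2, Hyou1, Dnajb11 and Pdia6, proteins that aid folding there, fell, with log2 fold changes of -0.93, -0.91, -0.83 and -0.79, while P4hb, a disulfide isomerase that is also a subunit of collagen prolyl hydroxylase, rose, with 171, 181 and 180 FPKM in the control libraries and 355, 349 and 358 FPKM in the OGD libraries. In autophagy and the lysosome, 17 of 76 members (22.4%) rose and 3 (3.95%) fell. Naglu, a glycosidase that degrades heparan sulfate, gave 14.4, 15.4 and 13.6 FPKM in the control libraries and 40.5, 41 and 45 FPKM in the OGD libraries, and its OGD libraries lay well clear of the controls. Ctsk, a collagen-cutting cathepsin, rose by 0.99 and Wipi1, an early autophagy protein, by 1.16.

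At the cell surface, rises outnumbered falls among receptors and adhesion molecules, and falls outnumbered rises among transporters. Over the 465 tested genes in 8 lists of membrane proteins, 105 (22.6%) were called higher and 56 (12%) lower. Of 51 cytokine and growth factor receptors, 18 (35.3%) rose and 3 (5.88%) fell. Il10ra, the ligand-binding chain of the receptor for interleukin 10, gave 4.26, 4.59 and 4.15 FPKM in the control libraries and 16.7, 19.7 and 18 FPKM in the OGD libraries, a log2 fold change of 2.04 ± 0.075. Il7r, the alpha chain of the interleukin 7 receptor, gave 5.31, 5.42 and 5.18 FPKM in the control libraries and 14.3, 16.5 and 14.3 FPKM in the OGD libraries. Both were low in control and clear of the controls in every OGD library. Tnfrsf18 and Tnfrsf9, costimulatory members of the TNF receptor family, rose by 1.81 and 1.37, and Csf1r, the receptor on which macrophages depend for survival, by 0.88. The largest fall was that of Il1r1, the signalling receptor for interleukin 1, with 1.73, 1.7 and 1.69 FPKM in the control libraries and 0.877, 0.676 and 0.682 FPKM in the OGD libraries.

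Of 51 tested G protein-coupled receptors, out of 280 listed, 12 (23.5%) rose and 5 (9.80%) fell. Ccr1, a receptor for inflammatory chemokines, gave 2.11, 1.73 and 1.83 FPKM in the control libraries and 6.29, 7.29 and 6.3 FPKM in the OGD libraries. Cx3cr1, the fractalkine receptor of microglia, gave 5.72, 6.36 and 5.69 FPKM in the control libraries and 16.7, 14.4 and 16.2 FPKM in the OGD libraries. Ccr1 and Cx3cr1 were separated from the controls without overlap, and Gpr183, a receptor for oxysterols, rose by 1.34. Lpar5 and Adora2a, receptors for lysophosphatidic acid and adenosine, fell, with log2 fold changes of -0.97 and -0.82. Fc, Siglec and immunoglobulin-like regulatory receptors had 15 of 37 members (40.5%) called higher and 2 (5.41%) lower, with a median of 0.43. The inhibitory receptor gene Lilrb4a gave 43.9, 43.3 and 41.9 FPKM in the control libraries and 123, 171 and 139 FPKM in the OGD libraries. Its close paralog Lilr4b rose by 1.6, and how the counting split reads between the pair is uncertain. Vsir, the checkpoint molecule VISTA, rose by 1.1, and Fcgr1, the high-affinity receptor for IgG, fell by 0.87. Among 25 pattern recognition and scavenger receptors, 5 (20%) rose and 2 (8%) fell. The scavenger receptor Stab1 rose by 1.2, and Tlr7 and Tlr2, sensors of RNA and of lipopeptides, fell, with log2 fold changes of -0.81 and -0.59. The lipopolysaccharide co-receptor Cd14 was above the controls in every OGD library, with a log2 fold change of 0.35 ± 0.036, and was not called.

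Among called adhesion genes, rises outnumbered falls. Of 46 integrins and adhesion molecules, 18 (39.1%) rose and 5 (10.9%) fell. The share of falls was below the 12.3% of all genes tested. Sdc3, a heparan sulfate proteoglycan, gave 13, 15.1 and 11.2 FPKM in the control libraries and 38, 37.5 and 41.7 FPKM in the OGD libraries. Its relative Sdc1 moved the other way, with 21.2, 21.9 and 21.9 FPKM in the control libraries and 7.84, 7.28 and 7.8 FPKM in the OGD libraries. Itgb3 and Itgb2, the beta chains of the vitronectin receptor and of the leukocyte integrins, rose by 1.38 and 1.2 (Itgb2 was chosen after its values were seen), and Itgam, the alpha chain that pairs with Itgb2, rose by 0.83. Itga4, the alpha chain of VLA-4, gave 10.1, 9.73 and 10.6 FPKM in the control libraries and 4.48, 4.39 and 4.32 FPKM in the OGD libraries, and Icam2 fell by 1.18.

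Among 173 solute carriers, 20 (11.6%) rose and 33 (19.1%) fell. Apart from the glucose transporters, Slc41a2, a magnesium carrier, rose by 1.8. Slc5a6, which takes up biotin and pantothenate, fell, with 5.59, 5.52 and 5.38 FPKM in the control libraries and 1.97, 2.39 and 2.32 FPKM in the OGD libraries, and the zinc importer Slc39a10 fell by 1.22. Of 60 ion channels and pumps, 11 (18.3%) rose and 3 (5%) fell. Kcnk2, the background potassium channel TREK-1, gave 2.3, 2.68 and 2.29 FPKM in the control libraries and 7.99, 8.42 and 7.21 FPKM in the OGD libraries. In antigen presentation 6 of 22 members (27.3%) rose, led by Cd74, the invariant chain of MHC class II, with 0.82, and 3 (13.6%) fell, among them Psmb10, a subunit of the immunoproteasome, which fell by 1.15, and the peptide transporter subunit Tap2, which fell by 0.86.

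Genes for secreted proteins held the highest share of rises among the functional classes. Over the 129 tested members of 5 lists, 66 (51.2%) were called higher and 8 (6.20%) lower, with a median log2 fold change of 0.58. A listed gene with a control mean under 1 FPKM was tested only if its OGD values lifted it past the filter. This favours rises, so the share and its rank are not independent of the filter. In matrix proteins, proteases and their inhibitors, 26 of 56 (46.4%) rose and 4 (7.14%) fell, though only 56 of 272 listed genes passed the filter. Mmp12, the macrophage elastase, gave 1.64, 1.54 and 1.46 FPKM in the control libraries and 27.8, 31.2 and 28 FPKM in the OGD libraries, a log2 fold change of 4.14 ± 0.071 (limma, adjusted p = 3.43e-07) that made it the second largest rise of any annotated gene. Plau, the urokinase plasminogen activator, gave 94.1, 98.9 and 89.4 FPKM in the control libraries and 326, 358 and 344 FPKM in the OGD libraries. Its OGD libraries all lay above the controls, and the related activator Plat, which was low in control, rose by 2.25. Lyz2, the lysozyme of macrophages, chosen after its values were seen, rose by 1.23.

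Of 27 cytokine genes tested, out of 49 listed, 19 (70.4%) were called higher and 0 lower. Of 13 chemokine genes tested, out of 40 listed, 9 (69.2%) were called higher and 1 (7.69%), Cxcl10, lower. A listed gene with a control mean under 1 FPKM entered these counts only if its OGD values lifted it past the filter, which favours rises. Il1a, a cytokine released from stressed cells, gave 1.14, 1.1 and 1.001 FPKM in the control libraries and 5.09, 7.86 and 6.66 FPKM in the OGD libraries. Csf3, the granulocyte colony-stimulating factor, gave 22.3, 21.4 and 18.8 FPKM in the control libraries and 87.6, 85.2 and 91.6 FPKM in the OGD libraries. Tnfsf13b, the B cell factor BAFF, gave 1.58, 1.55 and 1.76 FPKM in the control libraries and 5.65, 6.35 and 6.08 FPKM in the OGD libraries. In each of these the groups were apart by more than 3-fold in means. Cxcl2 and Ccl7, which draw neutrophils and monocytes, rose by 2.61 and 1.76. The call for Cxcl10 was lost without control replicate 1 (-0.70) or 3 (-0.57), without OGD replicate 1 (-0.58) or 3 (-0.74), with a pseudocount of 1 (-0.47) and with all 9 libraries in 1 fit (-0.69). Of 28 growth, vascular and metabolic factors, 11 (39.3%) rose and 2 (7.14%) fell. Fgf11, an intracellular member of the fibroblast growth factor family, rose by 1.3, and Lcn2, an iron-siderophore binding protein, by 1.27. Spp1, osteopontin, was among the most abundant messages, with 1882, 1826 and 1774 FPKM in the control libraries and 2946, 3289 and 2867 FPKM in the OGD libraries, and its rise of 0.73 shrank to 0.38 and was not called under quantile normalization. Manf, a secreted protein of the endoplasmic reticulum stress response, fell by 0.63.

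**Figure D4:**
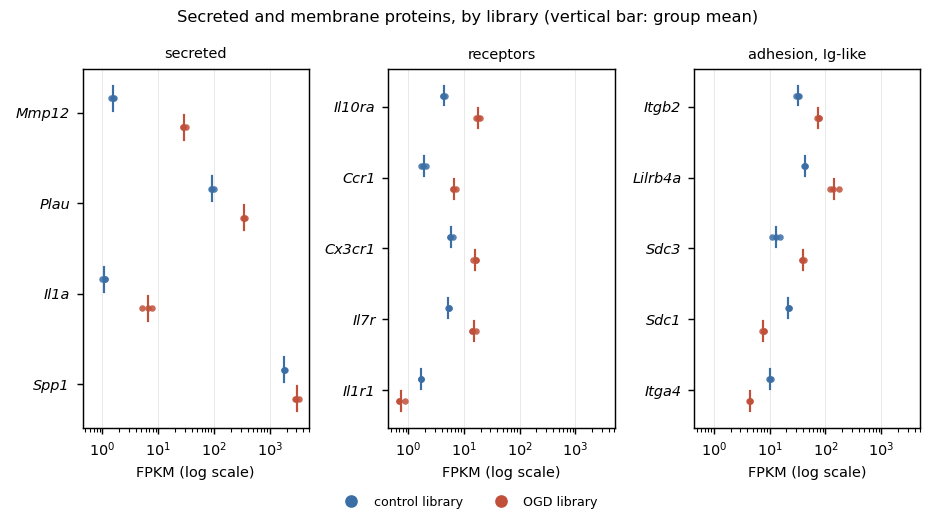
FPKM on a log axis of 14 genes for secreted proteins, receptors, and adhesion or immunoglobulin-like molecules in each control and OGD library, with a bar at each group mean. All but Il1r1, Sdc1 and Itga4 lie higher under OGD, and Mmp12 shows the widest gap, with a control mean of 1.55 FPKM.

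By the family labels of the deposited table, the share of transcription factors called was below the share of all genes. The deposited table assigns a transcription factor family to 1469 genes, of which 662 passed the filter, 43 (6.5%) were called higher and 69 (10.4%) lower, against 12.6% and 12.3%. Shares differed between families, and most rest on few genes. Of 33 basic helix-loop-helix factors 6 rose (18.2%) and 1 fell (3.03%), and of 36 bZIP factors 7 rose (19.4%) and 3 fell (8.33%). Of 295 C2H2 zinc finger factors 16 rose (5.42%) and 23 fell (7.80%), both below the shares of all factors. Of 9 E2F factors 0 rose and 5 fell (55.6%). E2f1, the activator of replication genes that was chosen after its values were seen, fell by 0.55, and its call was lost without OGD replicate 2 (-0.46). The 8 hand-written lists of transcription factors differed from the family labels in their share of rises. They also hold other regulators, such as Egln3 and Txnip. Of their 167 tested members, 34 (20.4%) were called higher and 19 (11.4%) lower.

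Several basic helix-loop-helix repressors and members of the MYC network rose. Id2, which keeps such factors off DNA, gave 6.23, 6.53 and 7.45 FPKM in the control libraries and 25.1, 29.3 and 22 FPKM in the OGD libraries, a log2 fold change of 1.9 ± 0.11. Bhlhe40 and Bhlhe41, repressors that act on the circadian clock, rose by 1.52 and 1.48, and the nuclear receptor Rora by 1.36. In the list of circadian and bHLH repressors, 7 of 22 members (31.8%) rose and 2 (9.09%), Nr1d2 and Cry1, fell. Of 13 members of the MYC, MXD and glucose-sensing network, 5 (38.5%) rose and 0 fell. Of these, Myc had control values under 1 FPKM and passed the filter only through its OGD values. The median log2 fold change of the list was 0.28, and -0.02 with no filter. Myc, which drives growth, and Mxd1, which competes with it for the partner Max, rose together. Myc was low, with 0.909, 0.723 and 0.955 FPKM in the control libraries and 2.54, 2.94 and 3.01 FPKM in the OGD libraries, and Mxd1 gave 6.94, 7.25 and 6.82 FPKM in the control libraries and 23.5, 23.2 and 21.8 FPKM in the OGD libraries. Txnip, an arrestin-like protein that restrains glucose uptake, gave 65, 64.6 and 66.8 FPKM in the control libraries and 128, 134 and 130 FPKM in the OGD libraries, and the related Arrdc3 rose by 1.74.

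Immediate early factors moved in both directions, with 6 of 26 (23.1%) called higher and 6 (23.1%) lower. Ier3 rose by 1.61 and Junb by 1.15, whereas Fos fell, with 2.58, 2.72 and 2.44 FPKM in the control libraries and 1.37, 1.6 and 0.937 FPKM in the OGD libraries, and Jun, at a log2 fold change of 0.41 ± 0.051, was not called. Among factors of the myeloid lineage, 3 of 32 (9.38%) rose and 5 (15.6%) fell. Spi1, the gene of the lineage factor PU.1, was not called, at -0.19 ± 0.066. Cebpa, a regulator of myeloid differentiation, was a low gene, with 2.73, 3.57 and 2.86 FPKM in the control libraries and 1.52, 0.612 and 1.7 FPKM in the OGD libraries, and its call was lost when any of the 3 control libraries was left out (-1.18 to -1.37), and with no filter or no trend in the prior variance (-1.295). Bcl6 and Tal1, a repressor and a haematopoietic factor, fell, with log2 fold changes of -1.03 and -0.92. Of 23 NF-kB, IRF and STAT factors, 3 (13%) rose and 3 (13%) fell, shares near those of all genes tested. The inhibitor gene Nfkbia, its atypical relative Nfkbiz and the NF-kB subunit gene Relb rose by 0.62, 0.57 and 0.56. The call for Relb was lost with a pseudocount of 1 (0.49). Nfkbid and Bcl3, atypical members of the inhibitor family like Nfkbiz, fell, with log2 fold changes of -0.97 and -0.94.

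**Figure D5:**
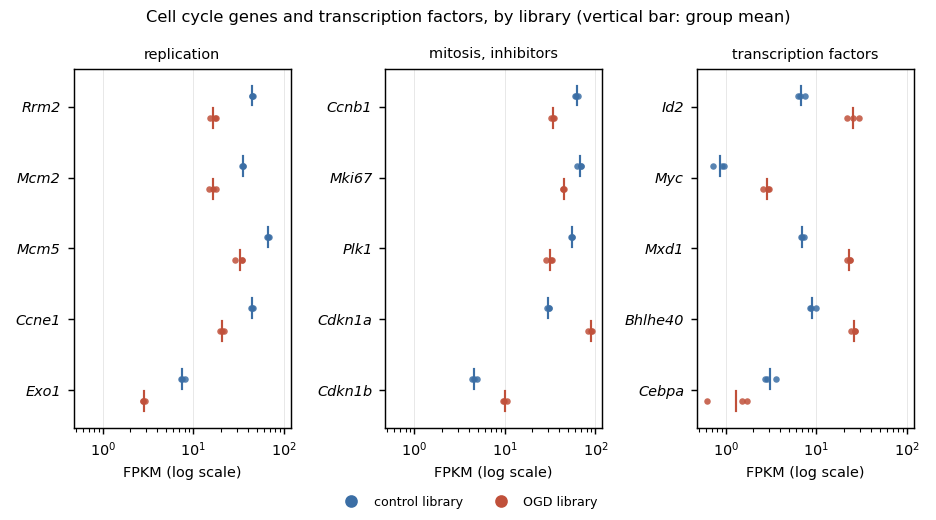
FPKM on a log axis of 15 genes of replication, mitosis, cell cycle inhibition and transcription in each control and OGD library, with a bar at each group mean. The replication and mitosis genes and Cebpa lie lower under OGD, and Cdkn1a, Cdkn1b, Id2, Myc, Mxd1 and Bhlhe40 lie higher, with no overlap between the groups.

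Feedback regulators of inflammatory and MAP kinase signalling had 15 of 60 members (25%) called higher and 3 (5%) lower. Tnfaip3, the ubiquitin-editing enzyme A20 that ends NF-kB signalling, gave 2.46, 2.37 and 2.67 FPKM in the control libraries and 9.64, 10.1 and 10.5 FPKM in the OGD libraries. Dusp8, a phosphatase of stress kinases, and Rasa4, a Ras-inactivating protein, rose by 1.58 and 1.76. Among interferon-stimulated genes, 10 of 33 (30.3%) were called lower and 4 (12.1%) higher. The share of rises was near the 12.6% of all genes tested. The median log2 fold change was -0.02, with 16 members above 0 and 17 below. Without control replicate 1 or OGD replicate 2 that median was 0.008 or 0.005. Usp18, which restrains interferon signalling, fell by 0.87. Among 36 apoptosis regulators, 9 (25%) rose and 4 (11.1%) fell. Bik, a pro-death member of the BCL-2 family, rose by 1.09 and the pro-survival member Mcl1 by 0.96, while Bid, also pro-death, fell by 0.81.

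The largest rise of an annotated gene was that of Arg1, arginase 1, which turns arginine into ornithine and urea. It gave 0.672, 0.409 and 0.305 FPKM in the control libraries and 9.8, 11.4 and 9.19 FPKM in the OGD libraries, with between 11 and 330 reads per library and a log2 fold change of 4.23 ± 0.24. Apold1, an early response gene of endothelial cells, gave 3.59, 3.46 and 3.76 FPKM in the control libraries and 36.9, 38 and 36.5 FPKM in the OGD libraries. Epm2a, the glycogen phosphatase laforin, and Klhl3, a ubiquitin ligase adaptor, were near the detection limit in control and rose by 3.07 and 2.97. Chd5, a chromatin remodeller, rose by 2.89. Among the falls, several of the largest belonged to very short or barely detected genes, such as Ighd4-1, which had at most 3 reads in any library. Of those with more reads, Hp, the haemoglobin-binding protein haptoglobin, gave 4.06, 3.15 and 3.999 FPKM in the control libraries and 0.88, 1.004 and 1.02 FPKM in the OGD libraries. Lcat, a cholesterol-esterifying enzyme, gave 2.01, 1.62 and 1.75 FPKM in the control libraries and 0.41, 0.458 and 0.371 FPKM in the OGD libraries, from between 7 and 38 reads. Ly6a, the surface antigen Sca-1, fell by 2.25 on between 3 and 35 reads, and its call was lost when all 9 libraries shared 1 estimate of the spread. Among noncoding genes, 63 of 265 long intergenic RNAs (23.8%) were called higher and 17 (6.42%) lower, and 45 of 205 antisense genes (22%) were called higher and 12 (5.85%) lower.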

How the data were processed

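RNA of BV2 cells was sequenced with an mRNA library kit, and the authors counted reads on genes with featureCounts and deposited FPKM per gene and library. The build was GRCm38 per the labels, and the aligner is not given in the sources used here. FPKM times gene length and a divisor per library gave whole reads for 100% of values above 0, which gave the depth and the reads for limma-voom. log2(FPKM + 0.1) of genes averaging at least 1 FPKM over the 6 libraries was fitted with limma 3.58.1 (R 4.3.3, trended prior variance, 2-sided) after a test on simulated data, genes being called past 0.5 on the log2 scale, in size, where the unadjusted p was under 0.01, and Benjamini-Hochberg adjustment over all 11818 genes. Fold changes on this scale understate those of low genes.

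The members and the 54 gene lists, written by hand from general knowledge and earlier lists, were chosen with earlier results of these data known. Named genes were the 12 annotated genes with the largest change in each direction without overlap between the groups, the 4 called members with the largest change in each direction of each list, and a set of fixed genes, of which some are left out. Genes outside that rule are marked. Promoter windows came from RefSeq (GRCm38.p6). Python 3.11.15, numpy 2.4.6, pandas 2.3.3 and matplotlib 3.10.9 were used. The alternatives were pseudocounts of 1 and 0.01, a minimum of 0.2 FPKM, no filter, quantile normalization, library totals, limma-voom, all 9 libraries in 1 fit, an adjusted p under 0.05, the replicate block, no trend and each library left out.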

Additional observations from a re-analysis of the deposited data

How the results depend on the processing

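The counts of 1493 higher and 1453 lower genes stayed within 1.5 times under every alternative, between 1290 and 1789 higher and between 1209 and 1778 lower. Scaling to library totals moved the balance to 1312 higher and 1706 lower, and limma-voom on recovered reads to 1380 and 1778, with a median log2 fold change of all genes of -0.059 in both, against -0.01. Leaving out each library in turn gave between 1408 and 1488 higher and between 1322 and 1488 lower genes. With the replicate block, 1426 genes were higher and 1392 lower. Same-numbered libraries did not deviate together (r of -0.133, -0.111 and -0.00466 across genes, against -0.0235 to 0.138 for different numbers), so no library correlated best with its own number throughout and the numbers were not taken as pairs. Among the genes named in the report, Cebpa, Cxcl10, G2e3 and Vwf were not called with that block. Of 327 genes examined by name, 0 changed sign. The cause of the calls that were lost was not tested. Of the 50 lists with a member that passed the filter, 42 moved by more than the spread in at least 1 alternative and 7 changed the sign of their median in some alternative, among them the MYC, MXD and glucose-sensing network, from 0.28 to -0.02 with no filter. Genes with few reads are the least certain: 54 called genes had a mean under 20 reads in both groups.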
